A study of Solanum lycopersicum with 40 samples.

Results

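Aux/IAA genes encode short-lived nuclear proteins that repress auxin responses, and 4 of them, IAA3, IAA7, IAA16 and IAA17, were followed across ripe fruit, leaf and root tip of tomato. They were chosen by the gene symbols of the array's annotation, and their differences between transgenic and control plants were known when they were chosen. Those differences are therefore given as a description and not as a test, and nothing is read from whether they were called. The annotation placed 8 probe sets in these genes, 2 for each, out of 10209 probe sets on the array and 802 genes with a symbol.

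In plants, Aux/IAA proteins bind auxin response factors and keep the genes under those factors repressed. Auxin joins an Aux/IAA protein to an F-box receptor, the repressor is then degraded, and the response factors become free to act. Many Aux/IAA genes are themselves switched on by auxin, so they form a feedback loop and are often read as markers of auxin response.

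The study asked how tomato plants (Solanum lycopersicum, dwarf cultivar Micro-Tom) that express an InsP 5-ptase gene differ from plants that do not, and measured RNA on 40 Affymetrix arrays. InsP 5-ptases are phosphatases that end the signal of inositol phosphates, which act as second messengers and set off calcium release. The transgenic lines N6 and N7 express this gene, while wild type (WT) carries no transgene and the vector control (VC) carries the vector alone. The promoter of the transgene is not given in the sources used here. Ripe fruit was picked from chamber-grown plants after 9 weeks and gave 4 arrays per genotype. The first pair of leaves of light-grown seedlings aged 10 days gave 3 arrays per genotype, and root tips of seedlings aged 10 days gave another 3. The root tip seedlings are called etiolated in some labels and light-grown in the growth protocol. For every root tip array one label field reads wild type, so the genotype was taken from the title. The titles call the fruit replicates biological. No label tells whether leaf or root tip replicates were grown or harvested separately, and p-values in these tissues cover only the spread among these arrays, part or all of which may be technical. Signals are in linear units that give each array a trimmed mean near 500, and signals under a floor of 50 were treated as dim and set to 50 before log2 was taken. In whole tissues, fewer cells of a type and less RNA per cell cannot be told apart.

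The labelled tissues were checked in the control arrays by lists of marker genes. All 6 leaf markers were highest in leaf, 7 of 9 fruit probe sets were highest in fruit, and 3 of 5 root probe sets were highest in root tip. Of 3 seed genes, 1 was above the floor, in fruit. A reporter probe set that was above the floor on 16 arrays marked only arrays of the lines, but on none of the 4 fruit N6 arrays. A second reporter read 1198 to 4416 on the arrays labelled fruit WT and 5161 on fruit VC 4, against at most 10.1 on fruit VC 1 to 3. Some fruit labels are thus at odds with the reporters, and fruit WT 3 and VC 4 also correlated least with their own groups (mean r 0.939 and 0.944). Fruit differences of the members are also given without these 2 arrays.

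For each gene 1 probe set carried nearly all of the signal. Its identifier ends in S1_at for IAA3, IAA7 and IAA16 and in A1_at for IAA17. These probe sets exceeded the floor on 26 arrays for IAA3, 22 for IAA7, 25 for IAA16 and 22 for IAA17, of 40, and passed the filter on dim signals in leaf and root tip. In fruit only IAA3 passed it. The second probe set of each gene stayed under the floor on all arrays, except that the one for IAA3 read 72.8 on leaf N7 2. All values below come from the first probe set of each gene, and because probe sets differ in how strongly they bind, levels are compared between samples and not between genes. The gene table of RefSeq gives IAA10 as another name of IAA17, so the numbers in the array's annotation need not be those of other nomenclatures.

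**Figure D1:**
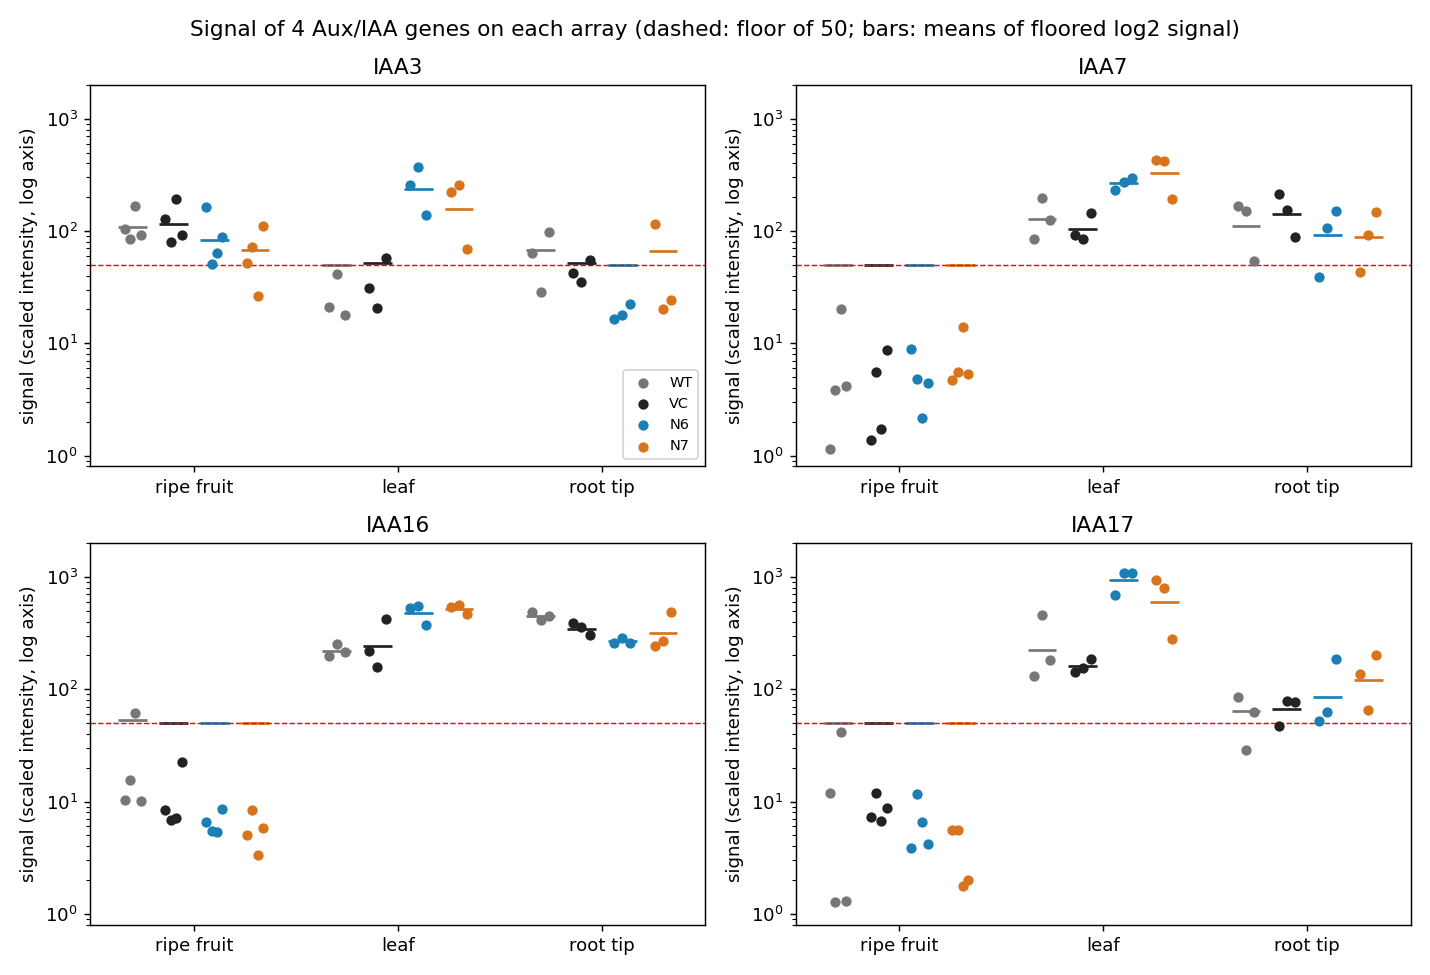
Signal of IAA3, IAA7, IAA16 and IAA17 on each of the 40 arrays (log axis, linear signal units) by tissue and genotype. Each point is 1 array, bars are means of log2 signal after flooring, and the dashed line is the floor of 50. IAA7, IAA16 and IAA17 lie under the floor in fruit apart from 1 array of IAA16, and leaf arrays of N6 and N7 lie mostly above those of WT and VC.

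Levels of these genes differed between tissues of control plants, as did those of most probe sets. That comparison is not the one known when the members were chosen, but its control arrays also entered the known one. Its p-values are thus not independent of the choice of members. IAA16 and IAA7 were expressed in leaf and root tip and were dim in ripe fruit, IAA17 was high in leaf alone, and IAA3 was the gene of the 4 that was detected on every control array of ripe fruit. Levels were set against each other in 1 limma fit of the 20 control arrays. Arrays set to the floor are all equal and add no spread to the error that the tissues share. For genes dim in a tissue the p-values can therefore be too small. In that fit 66.3% of 7436 probe sets were called between fruit and leaf, 66.5% between fruit and root tip and 70.1% between leaf and root tip, at a Benjamini-Hochberg adjusted p under 0.05. The 4 genes gave 4, 3 and 2 calls in these comparisons, and nothing is read from these counts. The control tissues also differed in the mean log2 ratio of 3' to 5' signal of housekeeping control transcripts. It was 4.82 in leaf, 3.89 in fruit and 2.85 in root tip. The fit of control arrays did not include this ratio, and its part in the tissue differences was not tested.

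IAA16 was brightest in root tips of controls, where its signal averaged 399.1 ± 65.7 (SD, n = 6), followed by 244.0 ± 93.4 (SD, n = 6) in leaf. Of the 8 fruit arrays of controls 7 were under the floor, and WT 3, which stands apart, read 61.9. Between leaf and root tip the log2 difference was -0.77 ± 0.18 (SE), with an adjusted p of 0.00108. Fruit was lower than leaf by at least 4.52-fold (adjusted p = 1.48e-09) and lower than root tip by at least 7.68-fold (adjusted p = 1.84e-11). The 3 tissues of controls were therefore ordered root tip, leaf, fruit for IAA16, with each step past the threshold. At a floor of 1 in place of 50 the step between leaf and root tip kept its size of -0.77 but had an adjusted p of 0.091.

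IAA17 had a different order, with leaf first. It averaged 208.8 ± 123.0 (SD, n = 6) in leaf and 63.2 ± 21.7 (SD, n = 6) in root tip, while no fruit array of controls exceeded 41.4. Leaf exceeded root tip by 2.87-fold on floored signals (log2 1.52 ± 0.22 SE, adjusted p = 7.02e-06) and fruit by at least 3.77-fold (adjusted p = 1.41e-07). Root tip WT 2 and VC 1 were among the arrays set to the floor. Fruit and root tip were both close to the floor and their difference, -0.39 ± 0.21 on the log2 scale, was not called (adjusted p = 0.104). That second step does not stand apart at the floor of 50, while at a floor of 1 it was -3.14 with an adjusted p of 1.49e-04, and with leaf WT 2 left out of the fit it was called at -0.39 (adjusted p = 0.013).

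IAA7 was above the floor in leaf and root tip of controls and dim in fruit. Its signal averaged 121.5 ± 43.8 (SD, n = 6) in leaf and 137.7 ± 57.7 (SD, n = 6) in root tip, and the difference of -0.12 ± 0.27 (SE, log2) was not called (adjusted p = 0.729). All fruit arrays were under the floor, with 20.4 on WT 3 as the highest. Leaf exceeded fruit by at least 2.31-fold (adjusted p = 3.03e-04) and root tip exceeded it by at least 2.51-fold (adjusted p = 1.27e-04). With the floor at 100 the difference between fruit and leaf was -0.31 and no longer called (adjusted p = 0.158).

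IAA3 went the other way, with its highest control level in ripe fruit. The WT arrays read 103.2, 85.5, 166.0 and 91.2, and the VC arrays read 127.8, 79.8, 192.4 and 91.6, so all 8 were above the floor. In leaf 5 of 6 control arrays were under the floor, and in root tip 3 of 6 were, with a mean of 53.8 ± 25.2 (SD, n = 6). Fruit exceeded leaf by at least 2.18-fold (log2 1.12 ± 0.19 SE, adjusted p = 4.44e-05) and root tip by 1.88-fold on floored signals (adjusted p = 4.02e-04). Leaf and root tip did not differ beyond their spread (-0.21 ± 0.21 SE, adjusted p = 0.379). At a floor of 100, close to the fruit level itself, both fruit differences became 0.26 and were not called (adjusted p = 0.128 and 0.127).

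These orders held without fruit WT 3 and VC 4. The differences of fruit from leaf were then -2.21 for IAA16, -1.91 for IAA17, -1.21 for IAA7 and 1.08 for IAA3. Those from root tip were -2.98, -0.39, -1.33 and 0.87 in the same order. Fruit WT 1, 2 and 4, at 2223, 2214 and 1198 for the second reporter, stayed in that fit. It therefore cannot settle the conflict between fruit labels and reporters. Over all probe sets the median difference was 0.06 between fruit and leaf, -0.03 between fruit and root tip and -0.24 between leaf and root tip. Scaling arrays to equal medians moved these to 0.20, 0.13 and -0.13, and no called direction of the 4 genes turned. IAA7 between leaf and root tip, not called, came to -0.0024 with that scaling.

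In leaf, signals of all 4 genes were higher on average in the InsP 5-ptase lines than in the controls, and the difference was widest for IAA17 and IAA3. IAA17 read 132.4, 456.3 and 181.3 in WT and 143.7, 153.9 and 185.0 in VC. It read 684.5, 1087 and 1089 in N6 and 939.1, 800.5 and 282.8 in N7. Of the 6 line arrays 5 lay above every control array, N7 3 lay below WT 2, and the groups overlapped through these 2 arrays. The means were 208.8 ± 123.0 in controls and 813.9 ± 305.1 in lines (SD, n = 6 each), a log2 difference of 1.98 ± 0.34 (SE) or 3.96-fold. It was 2.31 ± 0.42 in N6 and 1.66 ± 0.42 in N7.

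IAA3 was the gene that passed from dim to detected in leaf. WT arrays read 21.0, 41.2 and 17.8 and VC arrays 31.3, 20.5 and 57.5, so VC 3 alone was above the floor. N6 read 258.9, 370.6 and 139.2, and N7 read 224.5, 256.0 and 69.4. Every line array was above every control array, which held for 3.44% of the 6535 probe sets fitted in leaf and for none of the other 3 genes. The gene passed the filter on dim signals only through the line arrays. The lines were at least 3.79-fold higher (log2 1.92 ± 0.31 SE), with 2.21 ± 0.38 in N6 and 1.63 ± 0.38 in N7. The size depended on the floor: it was 1.04 at a floor of 100 and 2.75 at a floor of 1, with 1.25 and 3.04 in N6 and 0.84 and 2.46 in N7.

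IAA7 read 85.5, 195.4 and 126.0 in WT and 91.3, 85.4 and 145.8 in VC. N6 read 233.7, 275.2 and 294.1, and N7 read 430.5, 423.3 and 192.0. As for IAA17, N7 3 was the lowest line array and WT 2 the highest control array, and these 2 values nearly met while the other 5 line arrays were above all controls. The log2 difference was 1.35 ± 0.26 (SE), or 2.55-fold, with 1.20 ± 0.32 in N6 and 1.5 ± 0.32 in N7.

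IAA16 differed least of the 4 genes. WT arrays read 197.3, 253.7 and 215.1 and VC arrays 216.9, 157.4 and 423.5. N6 read 533.3, 549.2 and 371.7, and N7 read 540.2, 567.9 and 463.6. Here VC 3 was the high control and N6 3 the low line array, so a different pair of arrays made the groups overlap than for IAA17 and IAA7. The log2 difference was 1.11 ± 0.22 (SE), or 2.15-fold, with 1.04 ± 0.26 in N6 and 1.17 ± 0.26 in N7.

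All 4 genes were among the probe sets called higher in leaf, where 9.78% of the 6535 were called higher and 18.4% were called in either direction. Since the genes were chosen with this comparison known, nothing is read from that count or from their median difference of 1.64, which was 0.01 over all probe sets.

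**Figure D2:**
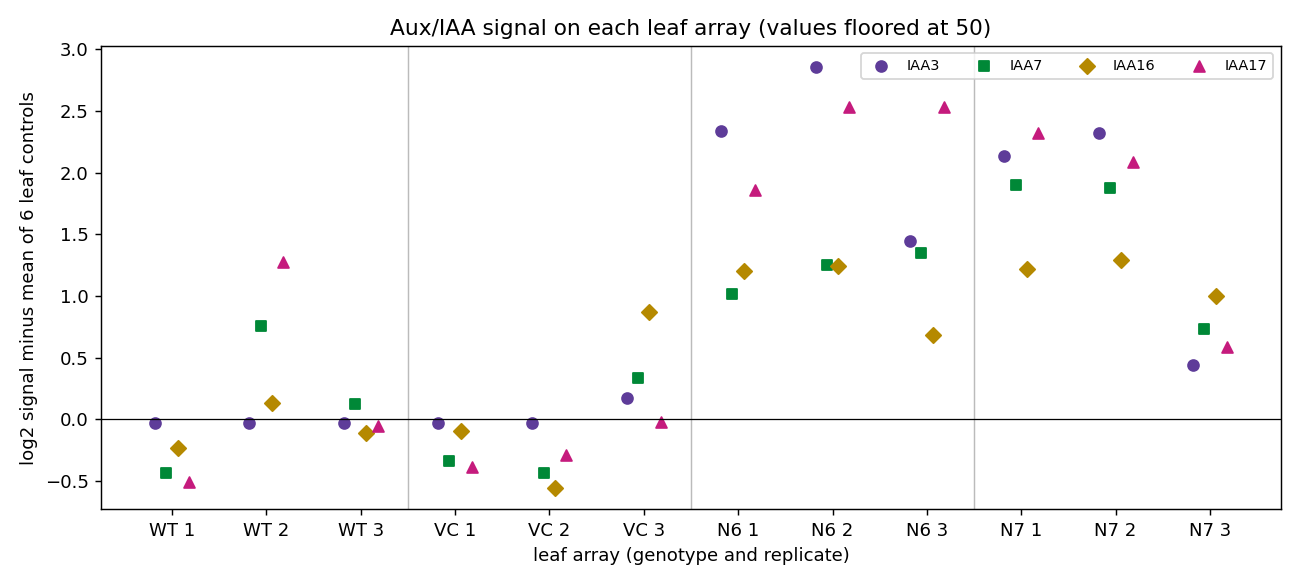
Log2 signal of the 4 genes on each of the 12 leaf arrays, floored at 50, minus the mean of the 6 control arrays of the same gene (y axis, log2 units), with 1 symbol per gene. N7 3 is the lowest line array for IAA3, IAA7 and IAA17 (0.44, 0.73 and 0.59), and WT 2 is the highest control array for IAA7 and IAA17 (0.76 and 1.28).

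Single leaf arrays changed the size of these differences but not their direction. With each array left out in turn they ran from 1.80 to 2.25 for IAA17, 1.75 to 2.22 for IAA3, 1.21 to 1.54 for IAA7 and 0.95 to 1.31 for IAA16. In leaf the ratio of 3' to 5' signal was lower on average in the lines, but single arrays of the groups overlapped. The mean log2 ratio of 3' to 5' signal of the housekeeping control transcripts, which is higher where the 5' ends are less well represented, was 4.44 in lines and 4.82 in controls (two-sided exact permutation p = 0.0498, adjusted over 3 tissues p = 0.149). Fitted together with this ratio, the differences were 1.64 for IAA17, 1.75 for IAA3, 1.05 for IAA7 and 0.75 for IAA16, while the count over all probe sets went from 1200 to 593. For IAA16 in N6 the difference went from 1.04 to 0.55. The part of the ratio in the result was not tested further.

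The lines were not shown to differ from each other in leaf. N7 minus N6 was -0.64 ± 0.48 (SE) for IAA17 (adjusted p = 0.413), -0.58 ± 0.44 for IAA3 (0.42), 0.30 ± 0.36 for IAA7 (0.63) and 0.13 ± 0.31 for IAA16 (0.825), beside 4.48% of all probe sets called in either direction. The controls were not shown to differ either: VC minus WT lay between -0.47 ± 0.48 for IAA17 and 0.14 ± 0.31 for IAA16, with adjusted p-values of 0.998 to 1 and 0.0153% of probe sets called. With 3 arrays per genotype these errors leave room for sizeable differences between N6 and N7.

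In root tip none of the 4 genes was called between lines and controls, in a tissue where 0.508% of 6495 probe sets were called, and nothing is read from that count. IAA16, the gene with its highest control level there, read 486.5, 414.6 and 447.2 in WT and 388.0, 356.9 and 301.6 in VC. It read 258.4, 287.5 and 258.0 in N6 and 244.3, 267.1 and 486.5 in N7. Thus 5 of 6 line arrays lay below every control array, and N7 3 was as high as the highest control. The log2 difference was -0.44 ± 0.18 (SE), with -0.56 ± 0.22 in N6 and -0.32 ± 0.22 in N7, opposite in sign to leaf. Without N7 3 the difference of N7 was -0.63.

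IAA17 in root tip read 85.0, 28.7 and 62.4 in WT, 47.2, 79.3 and 76.6 in VC, 51.8, 62.4 and 186.4 in N6, and 137.2, 65.4 and 200.6 in N7. The groups overlapped, with N6 3, N7 1 and N7 3 above all controls and the other 3 line arrays among them. Of the arrays above all controls, N6 3 and N7 3 had the lowest 3'/5' ratios in root tip (2.35 and 2.21), while N7 1 had 3.49. The part of the ratio in the IAA17 difference was not tested further. The difference was 0.63 ± 0.34 (SE, log2), with 0.36 ± 0.42 in N6 and 0.89 ± 0.42 in N7. Without N6 3 it was 0.34, and the difference of N6 was then -0.21.

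IAA7 in root tip read 167.2, 151.3 and 53.8 in WT and 213.7, 152.9 and 87.5 in VC. N6 read 38.9, 105.9 and 149.2, and N7 read 43.2, 91.3 and 146.9. The spread within each genotype was wider than the distance between groups, which was -0.48 ± 0.38 (SE, log2), and the groups overlapped over most of their range. Without N6 1 the difference of N6, -0.44 with it, was 0.0032. The 3'/5' ratio moved with these signals: it was 2.67, 2.68 and 3.28 in WT, 2.57, 2.77 and 3.15 in VC, 3.56, 3.13 and 2.35 in N6, and 3.49, 3.10 and 2.21 in N7, so that within each genotype the array with the highest ratio had the lowest IAA7 signal. In a fit that included the ratio the difference was -0.31.

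IAA3 was near the floor in root tip. WT read 63.3, 28.8 and 98.2 and VC read 42.3, 34.8 and 55.7. The N6 arrays were all under the floor, at 16.4, 17.8 and 22.6, and N7 read 114.6, 19.99 and 24.4. N7 1 was the highest of the 12 arrays, while the other 5 line arrays were under the floor and below every control array. The floored difference was -0.05 ± 0.22 (SE, log2), and it was -0.89 at a floor of 1. Its sign turned with single arrays, from -0.24 without N7 1 to 0.09 without WT 3. Between the lines no member was called in root tip (N7 minus N6 from -0.08 ± 0.54 for IAA7 to 0.53 ± 0.48 for IAA17, adjusted p = 1 for each), beside 0.0462% of probe sets. Between the controls the differences ran from -0.39 ± 0.31 for IAA3 to 0.36 ± 0.54 for IAA7 (adjusted p = 1 for each), where limma called 0 probe sets and 60 had an unadjusted p under 0.05.

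In ripe fruit only IAA3 could be fitted, and its mean was lower in the lines. N6 read 162.9, 50.9, 63.7 and 88.5, and N7 read 51.8, 71.4, 26.4 and 110.0, against the control values of 79.8 to 192.4 given above. Of the 8 line arrays 7 lay below the control mean of 117.2 ± 41.5 (SD, n = 8) and N6 1 above it, and the groups overlapped. The line mean was 78.2 ± 42.5 (SD, n = 8), a log2 difference of -0.58 ± 0.26 (SE), with -0.43 ± 0.32 in N6 and -0.73 ± 0.32 in N7. It was not called, in a tissue where 31.1% of 6208 probe sets were, and nothing is read from that.

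The fruit difference of IAA3 kept its sign under these alternatives but not its size. It was -0.53 without WT 3 and VC 4, with -0.38 in N6 and -0.68 in N7, and -0.90 for N7 against VC 1 to 3, the fruit groups with the same reporters as in leaf and root tip. At a floor of 100 it was -0.15, with -0.08 in N6. With each array left out in turn it ran from -0.75, without N6 1, to -0.46. N7 minus N6 was -0.30 ± 0.37 (SE, adjusted p = 0.788), beside 2.9% of probe sets called, and VC minus WT was 0.11 ± 0.37 (adjusted p = 0.986), where limma called 0 probe sets and 331 had an unadjusted p under 0.05. Without WT 3 and VC 4 these were -0.30 (limma adjusted p = 0.62) and 0.43 (adjusted p = 0.702). IAA7, IAA16 and IAA17 were under the floor on all 8 line arrays of fruit, so no difference can be given for them.

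**Figure D3:**
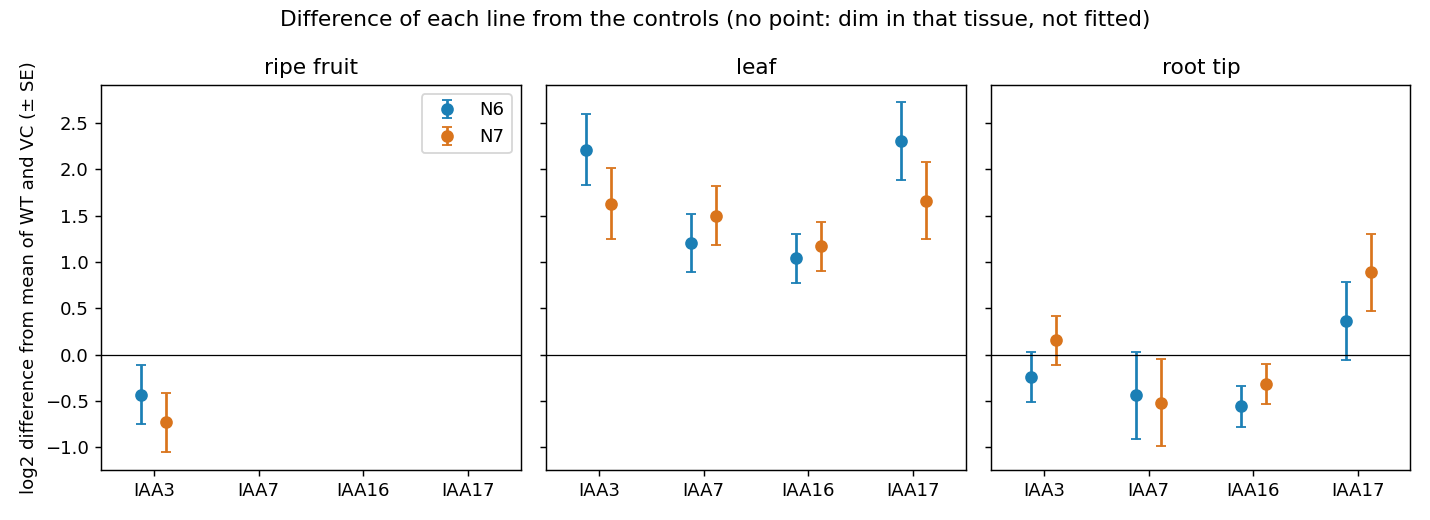
Log2 difference of N6 and of N7 from the mean of WT and VC for each gene (y axis, log2 units) in the 3 tissues, with error bars of 1 SE. In leaf all 8 points lie between 1.04 and 2.31, in root tip they lie on both sides of 0, and in fruit only IAA3 has points, at -0.43 and -0.73.

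Other auxin-related genes were taken from a list of symbols: further Aux/IAA genes, auxin response factors, an early response gene and ACC synthases. ACC synthases make the precursor of ethylene, and auxin induces them in plants. The list held 12 genes with 15 probe sets, of which 7 passed the filter in fruit, 7 in leaf and 9 in root tip. ACC synthases made up 8 of the 12 genes, and 4, 3 and 5 of these fitted probe sets. The counts and medians below are thus in part those of ethylene synthesis genes. In leaf 1 was called higher, 1 lower and 5 were not called, with a median difference of 0.21, beside 9.78% of all probe sets called higher and 8.58% called lower. In fruit 1 was called higher, beside 16.6% of all probe sets, and 6 were not called (median 0.07). In root tip none of 9 was called (median -0.11).

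Neither of the other Aux/IAA genes on the list was called between lines and controls. IAA27 read 96.6 ± 26.2 in controls and 89.4 ± 21.5 in lines of leaf (SD, n = 6 each), with a log2 difference of -0.10 ± 0.20 (SE, adjusted p = 0.756). Its probe set shares sequence with other transcripts by its suffix, and its differences were 0.22 ± 0.17 in root tip (adjusted p = 0.598) and -0.16 ± 0.11 in fruit (adjusted p = 0.3). The fruit difference was called when the fit included the 3'/5' ratio (-0.26, adjusted p = 0.0465), and without WT 3 and VC 4 the gene no longer passed the filter in fruit. In controls IAA27 was lower in fruit than in leaf (log2 difference -0.73 ± 0.17 SE, adjusted p = 0.00107), the same side as IAA7, IAA16 and IAA17. That difference was -0.85 without WT 3 and VC 4 (adjusted p = 2.52e-04), and at a floor of 100 it was -0.12 and not called (adjusted p = 0.148). IAA2 was above the floor on 1 of 40 arrays, root tip VC 3 at 102.8, and could not be fitted.

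ACS6, an ACC synthase, rose in leaf of the lines, from 76.3 ± 14.8 to 171.3 ± 62.9 (SD, n = 6 each). Its log2 difference was 1.11 ± 0.22 (SE, adjusted p = 0.00559), about that of IAA16. The lowest line array, at 116.5, was above the control mean, and with the floor at 100 the difference was 0.70 and not called (adjusted p = 0.0621). ARPI, listed as an auxin-regulated gene, fell by 1.09 ± 0.31 on the log2 scale in leaf (adjusted p = 0.0303). Its control level was uneven, with 282.2 ± 150.5 in VC, 65.7 ± 36.3 in WT, 38.9 ± 35.3 in N6 and 44.1 ± 42.1 in N7 (SD, n = 3 each). The call was lost in 7 of the 12 fits that left out 1 leaf array (adjusted p = 0.0649 to 0.0735), namely those without N7 1, N7 2, N6 2, N6 3, VC 1, VC 2 and WT 1. It was also lost when the fit included the 3'/5' ratio (-0.66, adjusted p = 0.281), at a floor of 100 (-0.68, adjusted p = 0.104) and with no filter (-1.09, adjusted p = 0.0982).

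ARF3, listed as an auxin response factor, was measured by 2 probe sets. In fruit the brighter one rose in the lines, from 825.2 ± 206.1 to 1139 ± 118.7 (SD, n = 8 each), a log2 difference of 0.50 ± 0.15 (SE, adjusted p = 0.018). The other probe set gave 0.43 ± 0.16 and was not called (adjusted p = 0.055), but it was called under 7 alternatives. These were the floor of 1 (adjusted p = 0.0467), the 3'/5' ratio in the fit (0.59, adjusted p = 0.00349), N7 against VC 1 to 3 (0.47, adjusted p = 0.0454), and the fits without fruit WT 1, VC 2, VC 3 or N6 4 (0.48 to 0.50, adjusted p = 0.0378 to 0.0489). Without WT 3 and VC 4 it gave 0.26 and was not called (adjusted p = 0.0983). After median scaling the brighter one gave 0.56 and was not called (adjusted p = 0.107). Without WT 3 and VC 4 the brighter one gave 0.30 (adjusted p = 0.00868), and N7 against VC 1 to 3 gave 0.45 (adjusted p = 0.0347). In leaf the 2 probe sets gave 0.21 and 0.11, and in root tip both gave 0.06, none of them called.

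**Figure D4:**
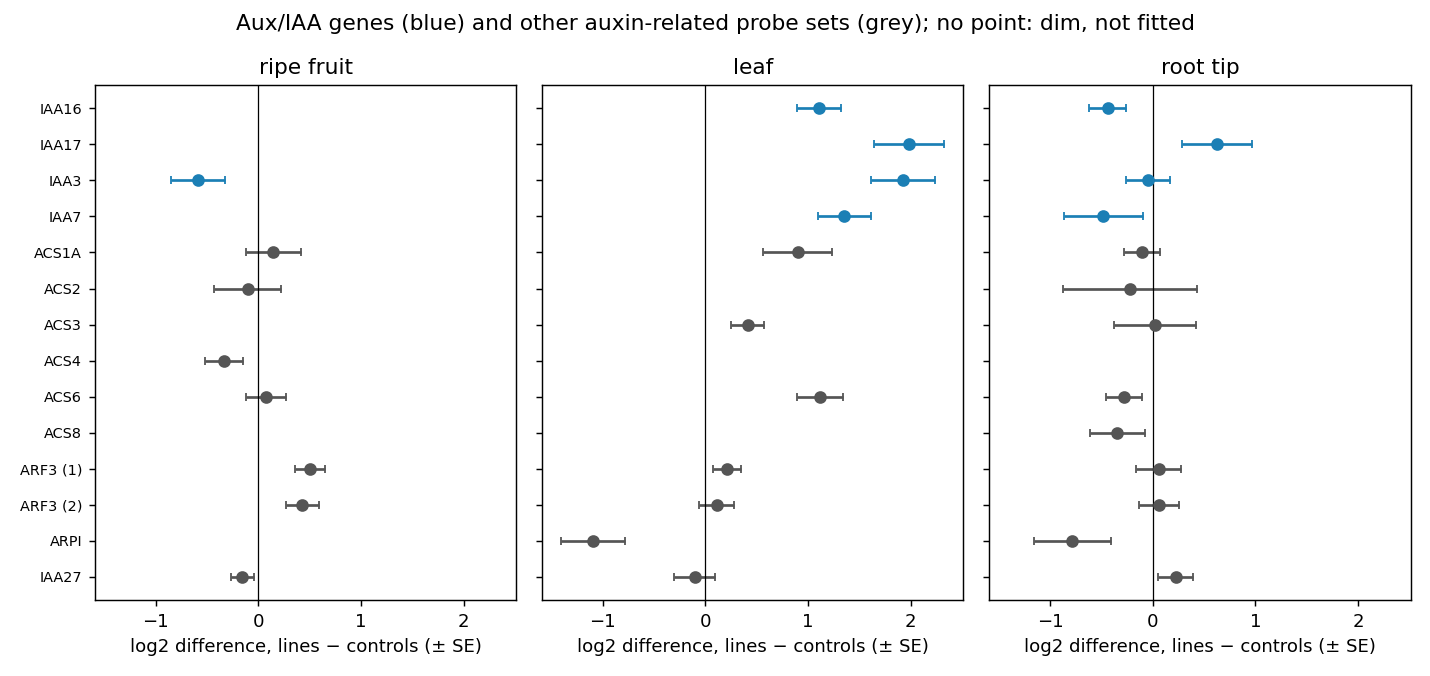
Log2 difference between lines and controls (x axis, log2 units, error bars of 1 SE) for the 4 Aux/IAA genes in blue and the other auxin-related probe sets in grey, by tissue. In leaf the 4 genes lie at 1.11 to 1.98, ACS6 at 1.11, ARPI at -1.09 and IAA27 at -0.10, and genes with no point were dim in that tissue.

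The members differed in how their levels ran across the 12 groups of tissue and genotype. Over the 12 group means of floored log2 signal, which share arrays and scaling with each other, Pearson's r was 0.883 between IAA17 and IAA7, 0.879 between IAA16 and IAA7 and 0.677 between IAA17 and IAA16. IAA3 followed none of them closely, with r of 0.536 to IAA17, 0.36 to IAA7 and 0.03 to IAA16. It was the member detected on every control array of ripe fruit.

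Among 805 other probe sets with a symbol, the most alike in pattern to IAA17 were ACO6 (r = 0.952), LOC543912 (0.95) and XET4 (0.939). Those most alike to IAA16 were GCH1 (0.975), WRKYIId-4 (0.969) and LCA1 (0.967). Those most alike to IAA7 were LOC543912 (0.948), BR1 (0.946) and GAL83 (0.934). For IAA3 the highest values were lower, with THOM1 (0.849), LOC778264 (0.848) and LOC543993 (0.821). These are correlations over 12 group means, given as a description.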

How the data were processed

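The authors deposited 1 linear intensity per probe set and array, made with GCOS per the submitters' processing notes. The GCOS version and scaling target are not given here. After the lowest and highest 2% of signals were left out, array means were 499.6 to 499.8, so the deposited scaling was kept. Between 54.7% and 63.8% of probe sets per array exceeded the floor of 50, within-group correlations were 0.93 to 0.996, and the number of arrays limits the precision.

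Signals were floored at 50 and log2-transformed. Probe sets above the floor on at least 4 fruit, 3 leaf, 3 root tip or 3 control arrays were tested with limma 3.58.1 (R 4.3.3), in a fit per tissue with a mean per genotype and 1 fit of the 20 control arrays over tissues, with a variance trend, two-sided p-values and Benjamini-Hochberg adjustment over every probe set in the fit. The 171 control probe sets were left out. The fits were tested on simulated data. Floors of 1 and 100, no filter, median and quantile scaling, a replicate block, the 3'/5' ratio and leaving out arrays were tried.

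The members, gene lists and tests were chosen with earlier results of these data known. All members were named, with every other Aux/IAA gene and the 3 probe sets most alike to each member. Up to 3 other auxin-related genes called higher and 3 called lower per tissue were named too. Of 909 probe sets with 1 symbol, 885 were matched through the gene ID to RefSeq's table of the assembly SLM_r2.1, used for names only, and 9129 had no symbol.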

Additional observations from a re-analysis of the deposited data

Results flagged for a closer look

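Effects of opposite direction between tissues, not tested as differences, were seen for 3 pairs. For IAA16 in N6 the difference from controls was 1.04 in leaf and -0.56 in root tip on the log2 scale, 1.6 apart. All 3 N6 arrays lay above the control mean in leaf and below it in root tip. For IAA3 in N6 it was 2.21 in leaf and -0.24 in root tip, 2.46 apart, and the root tip arrays of N6 were all under the floor. These values depend on the floor: at 100 they were 1.25 and 0, and at 1 they were 3.04 and -1.40. For IAA3 in N7 it was -0.73 in fruit and 1.63 in leaf, -2.36 apart, and at a floor of 100 it was -0.23 and 0.84. Every N7 array lay below the control mean in fruit and above it in leaf. The fruit plants and the seedlings also differed in age and growth, and the difference between tissues was not tested.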

How the results depend on the processing

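Of the tested values of the 4 members, all 176 of N7 minus N6, all 176 of VC minus WT and 306 of 312 for control tissues kept their side of the threshold, and no called value changed sign. Differences of lines from controls were judged by their size and not by their calls. Of these, 11 moved by more than the spread. Those of IAA3 in leaf and root tip moved with the floor. Those of IAA16 moved in N6 leaf with the 3'/5' ratio and in N7 root tip without N7 3. Some that lay near 0 changed sign. For IAA27, ARF3, ACS6 and ARPI, 1214 of 1245 were kept, 15 calls were lost, 16 gained and none reversed. No member had a call between N7 and N6 or between VC and WT under any of them.

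Between control tissues 4 calls of members were lost, those of IAA3 between fruit and both other tissues and of IAA7 between fruit and leaf at a floor of 100, and of IAA16 between leaf and root tip at a floor of 1. IAA17 between fruit and root tip gained a call at a floor of 1 and without leaf WT 2. The members called were then 2 between fruit and leaf at a floor of 100 and 1 between leaf and root tip at a floor of 1. With quantile normalization IAA7, not called between leaf and root tip, came to 0.00027. Members called between lines and controls were 2 in leaf with the 3'/5' ratio and 0 to 1 in fruit with single arrays left out (1 without N6 1), and nothing is read from these. Over all probe sets, the floor of 100 gave 2 calls for fruit VC minus WT, 174 for leaf N7 minus N6, 2 for leaf VC minus WT and 7 for root tip lines. The floor of 1 gave 0 for leaf VC minus WT and 5 for root tip N7 minus N6. No filter gave 91 for leaf N7 minus N6, 0 for leaf VC minus WT and 5 for root tip lines. The 3'/5' ratio gave 491 for fruit N7 minus N6, 593 for leaf lines, 84 for leaf N7 minus N6, 0 for leaf VC minus WT, 151 for root tip lines and 11 for root tip N7 minus N6. Without fruit WT 3 and VC 4 there were 3294 calls for fruit lines, 717 for fruit N7 minus N6 and 21 for fruit VC minus WT. Median scaling gave 94 for fruit N7 minus N6. It moved the share of calls that were higher from 53.4% to 65.6% for fruit lines, from 66.7% to 47.9% for fruit N7 minus N6 and from 53.2% to 39.3% for leaf lines. The unaltered counts were 1928, 180 and 0 in fruit, 1200, 293 and 1 in leaf, and 33, 3 and 0 in root tip, for lines minus controls, N7 minus N6 and VC minus WT. The cause of these shifts was not tested.

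Leaving out single arrays gave 83 to 286 calls for fruit N7 minus N6, 0 to 10 for fruit VC minus WT, 794 to 1556 for leaf lines, 69 to 709 for leaf N7 minus N6, 0 to 4 for leaf VC minus WT, 18 to 140 for root tip lines and 2 to 9 for root tip N7 minus N6. Residuals of same-numbered arrays correlated at -0.719 to 0.575 in fruit, -0.416 to 0.257 in leaf and -0.628 to 0.487 in root tip. Those of arrays with different numbers ran from -0.696 to 0.828, -0.402 to 0.573 and -0.575 to 0.702. These ranges give no sign of a pairing by number, but they were not tested and cannot exclude one. The replicate block gave 195 calls for leaf N7 minus N6 and 0 for leaf VC minus WT. With it 4 members were called for leaf lines, and nothing is read from that count. Signals near the floor limit IAA3 in every tissue, IAA17 in root tip, and IAA7, IAA16 and IAA17 in fruit.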

Other observations

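The relation of the members' floored log2 signals to the 3'/5' ratio was looked at after their values were seen, within tissues, as 9 relations. The permutations mixed lines and controls, whose differences were known when the members were chosen. Their p-values are therefore given as a description only. IAA7 in root tip had the closest relation. Over the 12 root tip arrays Pearson's r was -0.885 (permutation p = 0.00012, adjusted over the 9 relations p = 0.00108) and Spearman's rho was -0.809 (permutation p = 0.00246, adjusted p = 0.0221). Without the 2 arrays farthest from the median ratio r was -0.907, among controls it was -0.979 and among lines -0.934 (6 arrays each), and between deviations from the genotype means it was -0.914. An r of at least this size was found for 2.48% of the 6495 probe sets fitted in root tip.

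IAA16 in leaf gave r = -0.736 (permutation p = 0.0067, adjusted p = 0.0301) and rho = -0.622 (permutation p = 0.0335, adjusted p = 0.0612), with r of -0.668 without the 2 farthest arrays, -0.927 among controls and -0.044 among lines. An r of at least this size was found for 9.33% of 6535 probe sets in leaf. Between deviations from the genotype means r was -0.668 for IAA16 in leaf, with no test. None of the other 7 relations passed an adjusted p of 0.05. IAA3 in fruit gave r = 0.121 over 16 arrays (permutation p = 0.653), and IAA3 was also the member with a positive r in root tip (0.499, permutation p = 0.0992).

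Fruit WT 3, one of the 2 fruit arrays that stand apart, had the highest fruit signal of IAA7 (20.4), IAA16 (61.9) and IAA17 (41.4) among the 16 fruit arrays. All but that of IAA16 are under the floor.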
